A study of Mus musculus with 2 samples.

Results

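The HoxD genes Hoxd1, Hoxd3, Hoxd4, Hoxd8 and Hoxd9 were followed through untreated and dTAG-13-treated mouse gastruloids. They were chosen by symbol, 5 of the 32285 genes in the count tables. All 5 were found once in both tables. Gastruloids are grown from aggregated embryonic stem cells, which elongate in culture and form cell types of the embryonic trunk, here in their somitic form. Both groups derived from 1 line of E14 stem cells with a triple reporter, in which the endogenous Zeb2 protein carried an HA-FKBP12F36V tag. The controls therefore carried the tag too. dTAG-13 is a small molecule that directs proteins with this tag to degradation, and Zeb2 is a zinc-finger repressor of transcription. All aggregates were seeded from 300 sorted cells, received 3 µM CHIR99021 at 48 h and 10% Matrigel at 96 h. The treated ones also received 100 nM dTAG-13 at 72 and 96 h. The control is labelled untreated, although the design text names DMSO, and the time of harvest is not given in these labels.

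Hox genes encode homeodomain transcription factors that give cells their position along the head-to-tail axis. Within a cluster, genes at the 3′ end are switched on earlier and reach farther forward in the embryo, and genes toward the 5′ end follow later and farther back. Caudal progenitors, presomitic mesoderm, somites and neural tube of the trunk all use this code. Hoxd1, at the 3′ end, is known in the mouse for its part in pain-sensing neurons. Hoxd3 and Hoxd4 pattern the neck vertebrae. Hoxd8 and Hoxd9 act farther back in the trunk, Hoxd9 in the lumbar and sacral region with its paralogues.

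The members lie on the plus strand of chromosome 2 (GRCm38, GENCODE release M21). From 5′ to 3′ they are Hoxd9 (ENSMUSG00000043342, 74697727 to 74700208), Hoxd8 (ENSMUSG00000027102, 74704615 to 74707933), Hoxd4 (ENSMUSG00000101174, 74711929 to 74729160), Hoxd3 (ENSMUSG00000079277, 74711927 to 74748442) and Hoxd1 (ENSMUSG00000042448, 74762980 to 74765142). The spans of Hoxd3 and Hoxd4 share 17232 bases on 1 strand. Their 3′ ends, where this assay counts, are 19.3 kb apart. The antisense transcript Hoxd3os1 overlaps Hoxd8, Hoxd3 and Hoxd4, and the antisense transcript Haglr overlaps the end of Hoxd3. Hoxd3 and Hoxd4 overlap on the same strand, and for the antisense genes the strand setting of the counting was not stated. Reads of overlapping genes therefore cannot be fully told apart.

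Promoter windows of all 5 members, the 250 bases before the RefSeq start, were searched on both strands for 4 motifs, because the members were lower together in the treated library. The motifs were CACCTG (the E-box that Zeb2 is known to bind), TTTATG (Cdx), TGATTNAT (Pbx with Hox) and AGGTCA (the core of retinoic acid receptor sites). The windows of Hoxd3, Hoxd4 and Hoxd8 held matches and are shown 5′ to 3′ (RefSeq, GRCm38.p6, plus strand), with the matches in capitals.
Hoxd3, chr2:74711743-74711926: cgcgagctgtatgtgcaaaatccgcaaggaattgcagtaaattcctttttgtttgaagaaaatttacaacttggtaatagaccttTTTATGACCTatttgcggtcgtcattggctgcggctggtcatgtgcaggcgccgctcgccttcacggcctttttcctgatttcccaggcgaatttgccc
Hoxd4, chr2:74721728-74721977: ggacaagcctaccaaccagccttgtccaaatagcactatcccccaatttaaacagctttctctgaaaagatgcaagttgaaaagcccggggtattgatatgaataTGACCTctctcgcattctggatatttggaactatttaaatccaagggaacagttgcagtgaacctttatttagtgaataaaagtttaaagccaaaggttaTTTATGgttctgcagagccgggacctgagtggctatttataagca
Hoxd8, chr2:74704365-74704614: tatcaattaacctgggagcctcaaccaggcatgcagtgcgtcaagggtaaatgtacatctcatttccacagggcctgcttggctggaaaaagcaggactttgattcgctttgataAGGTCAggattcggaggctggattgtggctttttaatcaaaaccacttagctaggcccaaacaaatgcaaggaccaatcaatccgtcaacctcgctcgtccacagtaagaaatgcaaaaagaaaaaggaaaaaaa
In the Hoxd3 window, TTTATG began 165 bases and TGACCT, which is AGGTCA read on the other strand, 161 bases before the RefSeq start. These 2 matches overlap and form 1 run of capitals. The Hoxd3 sequence is shown as far as the first base of an exon annotated by GENCODE. In the Hoxd4 window TTTATG began 45 bases and TGACCT 145 bases before the start, and in the Hoxd8 window AGGTCA began 135 bases before it. The windows of Hoxd1 and Hoxd9 held none of the 4 motifs, and no member's window held CACCTG or TGATTNAT. Of 32851 RefSeq windows of the same length, 17.2% held CACCTG, 10.8% TTTATG, 2.82% TGATTNAT and 14.0% AGGTCA. Guanine and cytosine made up 71.6% of the window of Hoxd1 and 65.2% of that of Hoxd9, against 49.2% for Hoxd3, 40.4% for Hoxd4 and 44.4% for Hoxd8. A match is a description of the letters and does not show that a factor binds.

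There was 1 library per group, made from about 32 pooled gastruloids with 10000 live cells loaded, so no difference has a replicate check and no test was made. After filtering, 6231 untreated and 6688 dTAG-13 cells remained, with 140019633 and 151601709 unique molecular identifiers (UMIs, each 1 counted transcript) and medians of 20073 and 20207 UMIs per cell. The libraries shared 14 cell barcodes. Levels are UMIs summed over the cells and scaled to counts per total of 1000000 UMIs (CPM). Each transcript is counted once at its 3′ end, so CPM is not scaled by gene length. Intervals are 95% exact intervals of counting error only. The Zeb2 transcript itself, on which dTAG-13 does not act, stood at 67.9 CPM untreated and 94.6 CPM treated.

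Hoxd4 was the most abundant member in both libraries and Hoxd9 the next. Hoxd4 stood at 39.8 CPM (38.7 to 40.8) in the untreated library and at 15.2 CPM (14.5 to 15.8) in the dTAG-13 library. Hoxd9 stood at 15.8 CPM (15.1 to 16.4) and 7.85 CPM (7.41 to 8.31). The other members were rarer, so the level followed no gradient from one end of the cluster to the other. Hoxd3 stood at 6.69 CPM (6.27 to 7.13) untreated and 2.96 CPM (2.69 to 3.25) treated. Hoxd8 stood at 4.92 CPM (4.56 to 5.30) and 2.08 CPM (1.85 to 2.32), and Hoxd1 at 4.51 CPM (4.17 to 4.88) and 2.34 CPM (2.10 to 2.59). The intervals of Hoxd8 and Hoxd1 overlapped within each library, and those of the other neighbours in the order did not. The posterior end of the cluster was almost silent. Hoxd10 had 35 untreated and 17 treated UMIs, Hoxd11 30 and 16, Hoxd13 15 and 18, and Hoxd12 and Evx2 none.

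Every member was lower in the dTAG-13 library as a whole. The level of Hoxd4 was 2.63-fold lower (2.50 to 2.76), that of Hoxd8 2.37-fold lower (2.07 to 2.71) and that of Hoxd3 2.26-fold lower (2.02 to 2.53). Hoxd9 was 2.01-fold lower (1.87 to 2.16) and Hoxd1 1.93-fold lower (1.69 to 2.21). Calls were made on the log2 ratio with 1 CPM added to both levels, which draws low genes toward 0. On that scale the ratios of dTAG-13 over untreated were -1.34 for Hoxd4, -0.96 for Hoxd3, -0.94 for Hoxd8, -0.92 for Hoxd9 and -0.73 for Hoxd1. All 5 members were thus at least 1.5-fold lower, against 0.9% of the 17999 genes with at least 20 UMIs and 1.54% of the 5639 genes within the members' range of levels. The median ratio was -0.94 over the members and 0.03 over all genes. With Pou5f1-positive cells left out, 4 members were past 1.5-fold, and Hoxd1 had -0.55. The share of all genes past the line was not computed without those cells, here or in the groups of cells below.

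These library totals mix cells of different kinds in different proportions. In a sum over cells, fewer cells of a type and less RNA per cell cannot be told apart. Cells were therefore gated by at least 3 UMIs of 1 marker: T (Brachyury, caudal progenitors), Sox2 (neural and pluripotent cells), Tbx6 (presomitic mesoderm), Meox1 (somites), Sfn (surface ectoderm) or Zfp42 (naive pluripotent cells). T-positive cells made up 16.0% of the untreated and 10.3% of the dTAG-13 cells, Tbx6-positive cells 4.41% and 1.23%, and Meox1-positive cells 12.6% and 7.75%. Sox2-positive cells made up 38.2% and 34.2%, Sfn-positive cells 3.61% and 14.5%, and Zfp42-positive cells 6.85% and 9.29%. Gates could overlap: of Tbx6-positive cells, 38.9% untreated and 47.6% treated passed another gate as well.

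Companion markers were higher in the gates named for them, but the T, Sox2, Tbx6 and Sfn gates were mixed. All 8 caudal progenitor companions were higher in T-positive cells than in the whole library, and so were all 8 somite companions in Meox1-positive, all 8 surface ectoderm companions in Sfn-positive and all 8 naive pluripotent companions in Zfp42-positive cells of both libraries. Presomitic companions summed to 1290 CPM in Tbx6-positive untreated cells and 865 CPM in treated ones, against 377 and 206 CPM in the whole libraries. In T-positive cells they summed to 930 and 717 CPM, so the T gate is no pure progenitor gate. Somite companions summed to 200 and 339 CPM in Tbx6-positive cells, against 178 and 121 CPM in the whole libraries. Neural companions summed to 152 and 69.5 CPM in Sox2-positive cells, against 116 and 62.1 CPM. The Sox2 gate also held naive pluripotent companions, 1167 CPM untreated and 1512 CPM treated, so it is no pure neural gate. In Sfn-positive cells the naive pluripotent companions summed to 1961 CPM untreated and 737 CPM treated, against 742 and 1151 CPM for the surface ectoderm companions, so this gate is not pure either. Notochord markers summed to 16.4 and 28.7 CPM in the whole libraries, endoderm markers to 154 and 210 CPM and endothelium markers to 24.8 and 26.0 CPM. All 6 notochord markers were higher in T-positive cells, with sums of 39.2 and 81.4 CPM. Blood markers were near 0, with Hba-x at 0 UMIs in both libraries.

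In mesoderm and its progenitors, Hoxd9, Hoxd8 and Hoxd4 were highest in Tbx6-positive cells, and Hoxd3 and Hoxd1, whose 3′ ends lie farthest toward the 3′ end of the cluster, in Meox1-positive cells. In the untreated library Hoxd9 stood at 29.1 CPM in T-positive, 56.0 CPM in Tbx6-positive and 14.4 CPM in Meox1-positive cells. Hoxd4 had the same order, with 47.9, 81.3 and 47.2 CPM. Hoxd8 did too, with 7.30, 11.4 and 7.00 CPM. Hoxd3 had another order, at 3.79 CPM in T-positive, 8.78 CPM in Tbx6-positive and 16.4 CPM in Meox1-positive cells. Hoxd1, nearest the 3′ end, stood at 4.20, 6.19 and 10.7 CPM. The intervals of T and Meox1 overlapped for Hoxd4 and Hoxd8, and those of T and Tbx6 for Hoxd1. The treated library kept the order for every member but Hoxd4 and Hoxd8, whose Meox1 level lay above the T level, overlapping it for Hoxd8. In treated Meox1-positive and Tbx6-positive cells the intervals overlapped for Hoxd1 and Hoxd3.

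**Figure D1:**
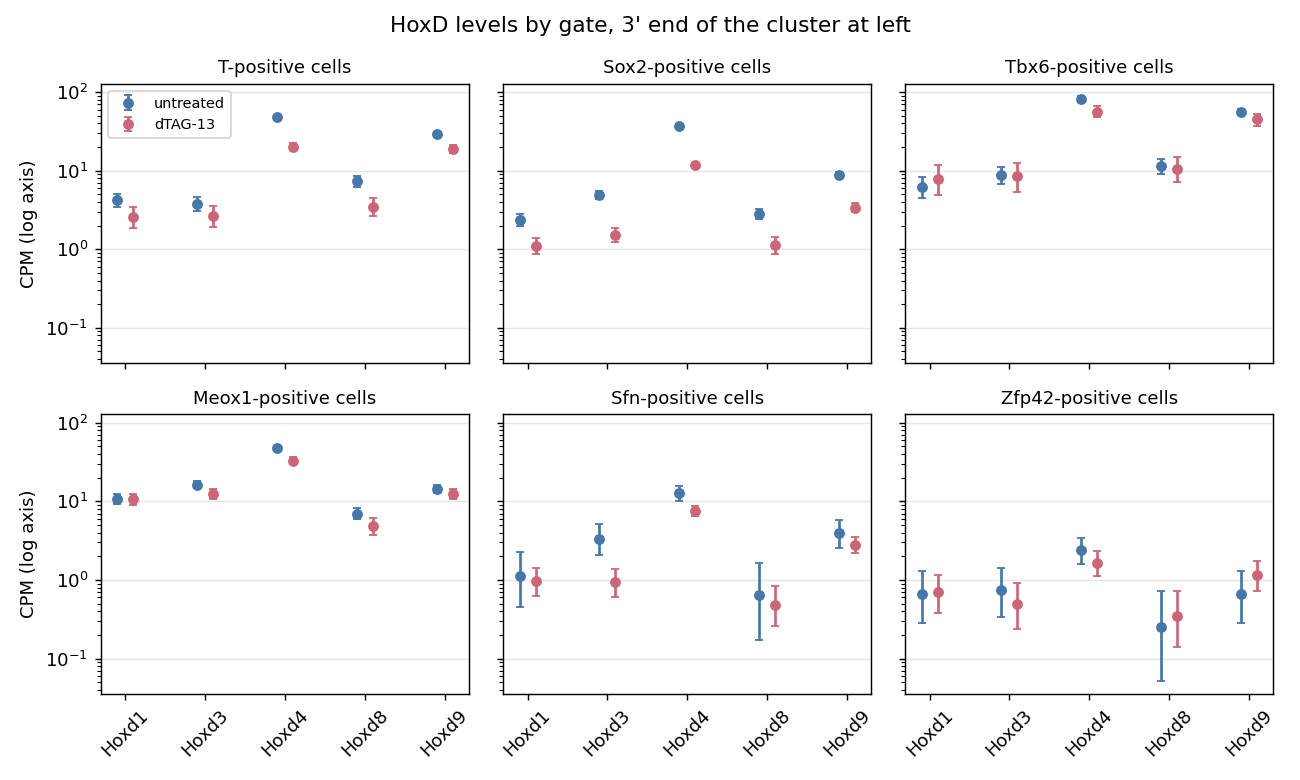
Levels of the 5 HoxD members in CPM (log axis) in each of the 6 marker gates, with untreated cells in blue and dTAG-13 cells in red. Points are library values and bars 95% Poisson intervals. Hoxd4 is the highest point of every panel, the red points lie below the blue ones for all 5 genes in the T and Sox2 panels, and the Zfp42 panel lies lowest.

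In Sox2-positive cells of the untreated library Hoxd4 reached 37.2 CPM, Hoxd9 8.85 CPM, Hoxd3 4.90 CPM, Hoxd8 2.85 CPM and Hoxd1 2.36 CPM. In Sfn-positive cells Hoxd4 reached 12.7 CPM and Hoxd9 3.98 CPM. Zfp42-positive cells were taken as the floor of the assay, where transcripts of other cells are also counted. Of them, 96.0% untreated and 92.8% treated passed another gate as well. Hoxb4, Hoxb8, Hoxb9 and Hoxc8 stood higher in treated than in untreated ones, as given below. Whether Zfp42-positive cells express some Hox genes themselves was not tested. The untreated levels of the members in these cells ran from 0.25 CPM for Hoxd8 to 2.40 CPM for Hoxd4. The treated levels ran from 0.35 CPM for Hoxd8 to 1.65 CPM for Hoxd4. Taking 20 UMIs and an interval above this floor as the minimum, all 5 members could be read in the T, Sox2, Tbx6 and Meox1 gates. In the Sfn gate Hoxd1 and Hoxd8 were too low to read, and in the Zfp42 gate all members were.

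The share of each member among the UMIs of the 5 genes shows the shift in make-up apart from the total. Hoxd4 gave the largest share in every gate and library shown, from 42.3% in treated T-positive to 66.3% in untreated Sox2-positive cells. Hoxd9 gave 34.2% in Tbx6-positive and 31.5% in T-positive untreated cells but 15.1% in Meox1-positive and 15.8% in Sox2-positive ones. Hoxd1 and Hoxd3 gave 11.2% and 17.1% in untreated Meox1-positive cells, and 4.55% and 4.11% in T-positive cells. After dTAG-13 the share of Hoxd9 in T-positive cells was 39.5% (36.2 to 43.0), above the untreated 31.5% (29.6 to 33.5). The share of Hoxd4 in those cells was 42.3% (38.9 to 45.7), below the untreated 51.9% (49.8 to 54.0). In Tbx6-positive cells Hoxd9 gave 35.0% (30.1 to 40.1) treated and 34.2% (31.5 to 37.1) untreated, with overlapping intervals.

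**Figure D2:**
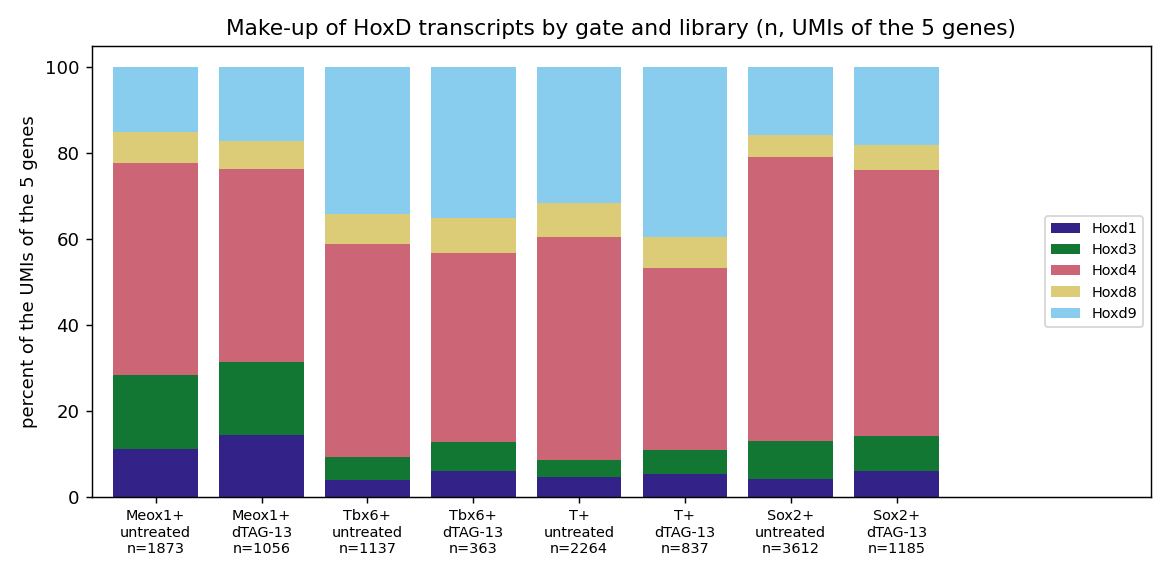
Stacked bars give each member's percent of the UMIs of the 5 HoxD genes in Meox1-, Tbx6-, T- and Sox2-positive cells of each library, with the number of UMIs under each bar. Hoxd9 takes 31.5% to 39.5% of the T and Tbx6 bars and 15.1% to 18.0% of the Meox1 and Sox2 bars.

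In Sox2-positive cells all 5 members were at least 1.5-fold lower in the dTAG-13 library, against 1.37% of the 16342 genes read there and 2.24% of those within the members' range of levels. Hoxd4 stood at 37.2 CPM untreated and 11.7 CPM treated, 3.19-fold lower (2.94 to 3.47). Hoxd3 stood at 4.90 and 1.54 CPM, 3.18-fold lower (2.53 to 4.04). Hoxd9 stood at 8.85 and 3.38 CPM, 2.62-fold lower (2.23 to 3.08). These are the widest gaps of the 3 genes among the T, Sox2, Tbx6 and Meox1 gates. Hoxd8 stood at 2.85 and 1.13 CPM, 2.53-fold lower (1.91 to 3.37), and Hoxd1 at 2.36 and 1.11 CPM, 2.13-fold lower (1.59 to 2.87). The share of Sox2-positive cells with Pou5f1, a marker of pluripotent cells, was 22.7% in the untreated and 42.8% in the treated library. Surface ectoderm companions summed to 135 and 482 CPM in these cells and endoderm markers to 81.0 and 105 CPM, and their part in the result was not tested. With Pou5f1-positive cells left out, a step chosen after seeing the data, all 5 members stayed past 1.5-fold. The log2 ratio of Hoxd4 was then -1.22 in place of -1.59, and that of Hoxd9 -0.92 in place of -1.17.

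In T-positive cells 3 members were at least 1.5-fold lower, against 1.49% of 13981 genes and 1.46% of those within the members' range of levels. These were Hoxd4, Hoxd8 and Hoxd9. Hoxd4 stood at 47.9 and 20.3 CPM, 2.36-fold lower (2.09 to 2.67), and Hoxd8 at 7.30 and 3.50 CPM, 2.09-fold lower (1.55 to 2.84). Hoxd9 stood at 29.1 and 19.0 CPM, 1.53-fold lower (1.34 to 1.75), and its interval lay apart from that of Hoxd4. Hoxd1 stood at 4.20 and 2.58 CPM, 1.63-fold lower (1.14 to 2.37), and Hoxd3 at 3.79 and 2.64 CPM, 1.44-fold lower (1.00 to 2.09). With 1 CPM added to both levels, their log2 ratios of -0.54 and -0.40 did not reach the 1.5-fold line. Pou5f1 was found in 4.60% of untreated and 13.9% of treated T-positive cells. Without these cells the log2 ratio of Hoxd9 was -0.37, within 1.5-fold, while those of Hoxd1 and Hoxd3 were -0.60 and -0.62, past it. Hoxd4 then had -1.02 and Hoxd8 -0.65. The Hoxd9 ratio was also within 1.5-fold after thinning to 5000 UMIs (-0.24), in cells positive for exactly 1 marker (-0.36), as a mean of per-cell CPM (-0.44), with a prior of 5 CPM (-0.51) and with gates of at least 2 UMIs (-0.50) or 1 UMI (-0.54). That of Hoxd8 was within 1.5-fold as a mean of per-cell CPM (-0.58), with that prior (-0.53) and with at least 2 UMIs (-0.56). Hoxd4 was past 1.5-fold under each of these. Hoxd1 was past it after thinning (-0.73), in cells positive for exactly 1 marker (-0.76) and as a mean of per-cell CPM (-0.68). It also was with a prior of 0.1 CPM (-0.68) and with gates of at least 2 UMIs or 1 UMI (-0.67). Hoxd1 fell short with a prior of 5 CPM (-0.28) and with gates of at least 5 UMIs (-0.29) or 100 CPM (-0.55). From the untreated to the treated library, surface ectoderm companions in T-positive cells summed to 219 and 668 CPM, naive pluripotent companions to 59.9 and 255 CPM and endoderm markers to 26.6 and 112 CPM. Their part in the result was not tested. Cells positive for both T and Sox2, the marker pair of neuromesodermal progenitors, numbered 266 untreated and 178 treated. There Hoxd4 stood at 45.6 and 14.6 CPM, and 3 members (Hoxd4, Hoxd8 and Hoxd9) were past 1.5-fold, against 3.93% of genes and 4.5% of those within the members' range of levels. Pou5f1 was found in 6.02% of these cells untreated and 34.3% treated. Naive pluripotent companions summed to 73.5 and 550 CPM in them, surface ectoderm companions to 208 and 684 CPM and endoderm markers to 17.7 and 129 CPM. The part of such cells in the result was not tested.

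In the Tbx6 and Meox1 gates the gaps were smaller. No member reached 1.5-fold in Tbx6-positive cells, where 4.93% of 10923 genes and 2.96% of those within the members' range of levels did. Nor did any in Meox1-positive cells, where 1.12% of 13104 genes and 0.716% of those within that range did. In Tbx6-positive cells Hoxd4 stood at 81.3 and 56.4 CPM, 1.44-fold lower (1.21 to 1.73), and Hoxd9 at 56.0 and 44.8 CPM, 1.25-fold lower (1.02 to 1.54). Hoxd8 stood at 11.4 and 10.6 CPM, Hoxd3 at 8.78 and 8.47 CPM and Hoxd1 at 6.19 and 7.76 CPM, all with overlapping intervals. The treated Tbx6 gate held 82 cells, and 12.2% of them had Pou5f1 against 1.45% of 275 untreated ones. Surface ectoderm companions summed to 64.0 and 248 CPM there, and naive pluripotent companions to 28.5 and 106 CPM. Without Pou5f1-positive cells the log2 ratio in Tbx6-positive cells was -0.24 (interval -0.53 to 0.02) for Hoxd4 and 0.10 (-0.20 to 0.40) for Hoxd9.

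Meox1-positive cells gave the closest match between libraries for Hoxd1, with 10.7 CPM (9.33 to 12.3) untreated and 10.6 CPM (8.97 to 12.4) treated. Hoxd9 stood at 14.4 and 12.5 CPM, 1.15-fold lower (0.95 to 1.39). Hoxd3 stood at 16.4 and 12.5 CPM, 1.30-fold lower (1.08 to 1.57), Hoxd4 at 47.2 and 33.1 CPM, 1.43-fold lower (1.28 to 1.60), and Hoxd8 at 7.00 and 4.81 CPM, 1.46-fold lower (1.08 to 1.98). Pou5f1 was found in 1.02% of untreated and 6.18% of treated Meox1-positive cells. Surface ectoderm companions summed to 43.3 and 161 CPM there, and naive pluripotent companions to 47.3 and 121 CPM. Without Pou5f1-positive cells the log2 ratio of Hoxd4 was -0.35 (interval -0.52 to -0.19) and that of Hoxd3 -0.17 (-0.46 to 0.09). For Hoxd4 the intervals of the ratio in the Sox2 and T gates lay apart from those in the Tbx6 and Meox1 gates. With 1 library per group the difference between gates was not tested.

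**Figure D3:**
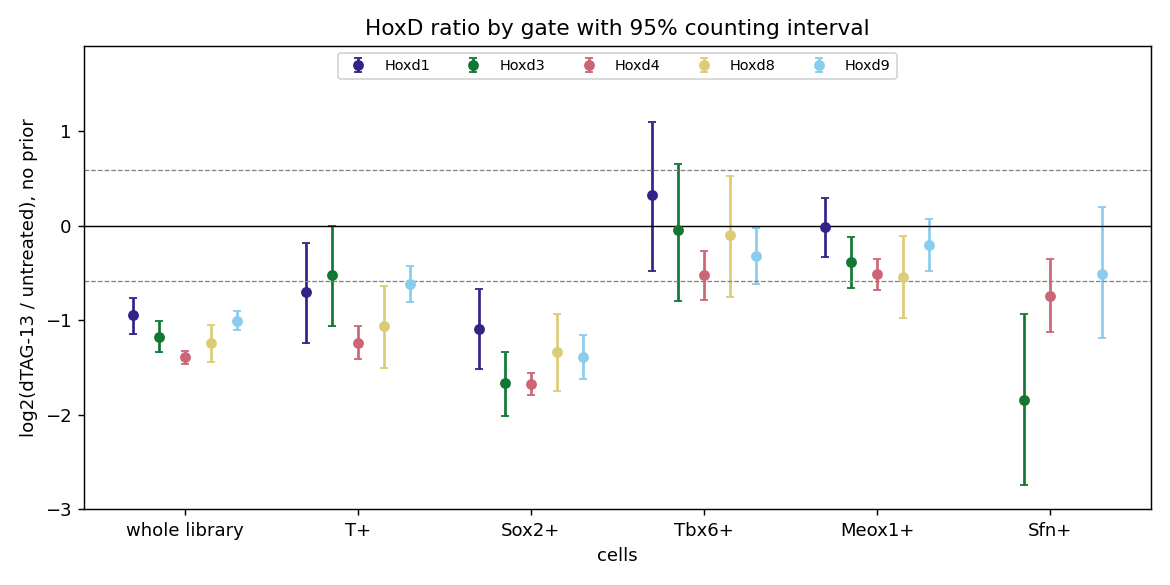
Log2 ratio of dTAG-13 over untreated, with no prior, for each HoxD member in the whole library and in 5 marker gates, with 95% exact counting intervals. Dashed lines mark 1.5-fold, and members too low to read are left out. All points lie below 0 in the whole library, Sox2 and T columns. For each gene, the Tbx6 and Meox1 points lie nearer to 0 than the points of the same gene in those columns.

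Among the remaining cells, 2 of the 4 members with enough UMIs in the Sfn gate were at least 1.5-fold lower, against 4.32% of 13731 genes and 7.29% of those within the members' range of levels. Hoxd4 stood at 12.7 and 7.58 CPM, 1.68-fold lower (1.28 to 2.19). Hoxd3 stood at 3.34 and 0.93 CPM on 21 and 25 UMIs. Pou5f1 was found in 33.8% of untreated and 26.3% of treated Sfn-positive cells. Without them 3 members were past 1.5-fold, on 149 untreated and 715 treated cells and with no share of all genes computed. The log2 ratios were -1.07 for Hoxd4 in place of -0.68 and -0.98 for Hoxd9 in place of -0.39. Hoxd3 had -1.53 in place of -1.17, on 16 and 13 UMIs. In Zfp42-positive cells none of the 3 members with enough UMIs was past 1.5-fold, against 0.706% of genes. Cells with none of the 6 markers, 2156 untreated and 2795 treated, had all 5 members at least 1.5-fold lower, against 1.04% of genes and 1.38% of those within the members' range of levels. Hoxd4 was 2.42-fold lower there. Of these cells, 6.03% untreated and 18.0% treated had Pou5f1. Endoderm markers summed to 389 and 421 CPM in them, and surface ectoderm companions to 235 and 557 CPM. The part of such cells in the result was not tested. No member was at least 1.5-fold higher in the whole library, where 2.51% of genes were, or in any gate. The share of genes at least 1.5-fold higher was 6.39% in T-positive, 3.1% in Sox2-positive, 4.9% in Tbx6-positive, 3.02% in Meox1-positive, 3.98% in Sfn-positive and 3.27% in Zfp42-positive cells. It was 7.62% in cells positive for T and Sox2 and 2.48% in cells with none of the markers.

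Since the mix of cells differed between the libraries, treated and untreated cells were also weighed to equal shares of 8 strata made from the gates, a step added after seeing the data. The log2 ratios were then -1.13 for Hoxd4, -0.77 for Hoxd3, -0.74 for Hoxd8, -0.69 for Hoxd9 and -0.57 for Hoxd1. Hoxd1 was no longer past 1.5-fold, and the other 4 were.

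Single cells held few HoxD transcripts. Every cell was thinned to 5000 UMIs, leaving out 87 untreated and 81 treated cells that were shallower. After thinning, 74.3% (73.2 to 75.4) of untreated and 88.9% (88.1 to 89.7) of treated cells had none of the 5 members. In the Sox2 gate these shares were 78.3% and 92.5%, in the T gate 65.7% and 83.1%, and in the Meox1 gate 66.8% and 72.5%. In Tbx6-positive cells they were 46.5% (40.5 to 52.6) and 53.7% (42.3 to 64.7). Zfp42-positive cells gave 97.0% and 98.7%. Hoxd4 was found in 20.9% of untreated and 7.37% of treated T-positive cells, and unthinned in 56.3% and 30.2%. The shares in Zfp42-positive cells, taken as background, were 1.87% and 0.32% thinned, and 3.98% and 3.70% unthinned. Median depths were 21090 and 19961 UMIs in T-positive and 27212 and 27719 UMIs in Zfp42-positive cells.

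In each library as a whole, cells with Hoxd4 held the other members more often than cells without it. The intervals overlapped for Hoxd1 in the treated library, at 1.94% (0.84 to 3.79) and 1.08% (0.84 to 1.37). Of untreated cells with a Hoxd4 UMI after thinning, 11.6% (9.64 to 13.7) also had Hoxd9, against 5.65% (5.04 to 6.32) of cells without Hoxd4. In the treated library the shares were 12.4% and 2.66%. For Hoxd3 they were 5.83% and 2.62% untreated, and 5.83% and 1.21% treated. These shares pool cells of all gates. Within untreated T-positive cells the Hoxd9 shares were 16.3% (11.5 to 22.0) and 11.4% (9.27 to 13.8), with overlapping intervals. In untreated Tbx6-positive cells the order was the other way for Hoxd1 (2.47% and 3.09%) and Hoxd8 (4.94% and 5.67%). Hoxd3 and Hoxd9 kept it there, and all these intervals overlapped. In untreated Sox2-positive cells the intervals lay apart for Hoxd9, at 7.14% (4.76 to 10.2) and 3.14% (2.42 to 4.00), and for Hoxd3. They overlapped there for Hoxd1 and Hoxd8. In untreated Meox1-positive cells they lay apart for Hoxd1 only, at 10.9% (6.35 to 17.1) and 3.80% (2.45 to 5.60). In cells with none of the markers they lay apart for Hoxd3 and Hoxd9 in both libraries, and for Hoxd8 in the treated one.

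The paralogues of the members in the other clusters, 12 genes, all had lower levels in the dTAG-13 library as a whole, with log2 ratios from -1.27 to -0.19. At least 1.5-fold lower were 10 of 12 in the whole library, 11 in Sox2-positive, 7 in T-positive, 5 in Meox1-positive, 3 in Sfn-positive cells and 1 (Hoxc4) in Tbx6-positive cells. In Zfp42-positive cells none was lower and 4 were at least 1.5-fold higher, with a median log2 ratio of 0.32 over the 12. These were Hoxb9 (22.6 and 40.4 CPM), Hoxb8 (14.8 and 29.3 CPM), Hoxb4 (7.78 and 13.1 CPM) and Hoxc8 (6.04 and 9.67 CPM). The median log2 ratio of the 12 paralogues was -0.98 in Sox2-positive cells and -0.63 in T-positive cells, where the members had -1.17 and -0.59. All 5 HoxB paralogues were more abundant in the untreated library than the HoxD members of their groups, such as Hoxb9 at 372 CPM and Hoxb8 at 201 CPM. Within group 4, Hoxd4 had a lower ratio than Hoxb4 and Hoxc4 in Sox2-positive cells. Its interval was -1.80 to -1.56 there, against -0.97 to -0.87 for Hoxb4 and -1.42 to -1.18 for Hoxc4. Within group 9, Hoxd9 stood apart the other way in Meox1-positive cells. Its interval was -0.48 to 0.07, against -1.88 to -1.09 for Hoxa9, -0.85 to -0.64 for Hoxb9 and -1.69 to -0.99 for Hoxc9. In that gate Hoxa9 stood at 13.5 CPM untreated and 4.88 CPM treated, and Hoxd9 at 14.4 and 12.5 CPM.

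**Figure D4:**
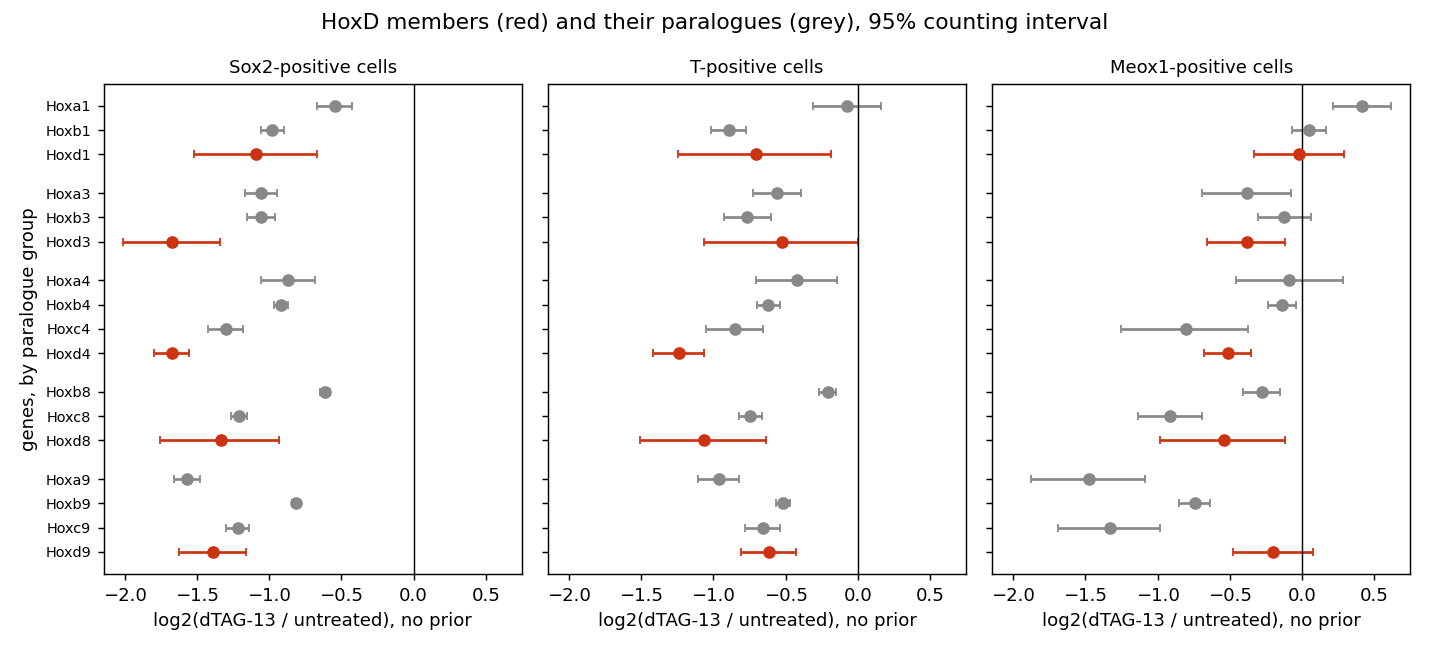
Log2 ratio of dTAG-13 over untreated, with no prior, for HoxD members (red) and their paralogues in clusters A, B and C (grey), grouped by paralogue group, in Sox2-, T- and Meox1-positive cells. Bars are 95% exact counting intervals. Hoxd4 lies left of its 3 paralogues in the Sox2 and T panels, and Hoxd9 lies right of its 3 paralogues in the Meox1 panel.

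Other genes of the locus gave mixed values. Haglr stood at 8.68 and 4.82 CPM in the whole libraries, a log2 ratio of -0.73, and Hoxd3os1 at 2.70 and 0.92 CPM, a ratio of -0.95. In Meox1-positive cells Haglr stood at 15.2 and 14.6 CPM. Mtx2, a mitochondrial import gene whose start lies 62.8 kb past that of Hoxd1, stood at 125 and 96.0 CPM, a ratio of -0.38. Lnpk, on the far side of the posterior end, stood at 26.0 and 24.7 CPM, a ratio of -0.07.

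Genes known to act on Hox genes, or with their proteins, were read from 4 lists. Of 10 Cdx genes and posterior signals, 4 were at least 1.5-fold lower in the whole library. These were Cdx4 (49.5 and 20.2 CPM), Wnt3a (7.20 and 2.51 CPM), Wnt5b (16.0 and 9.56 CPM) and Cdx2 (145 and 94.7 CPM). Cdx1, the third Cdx factor, stood higher in the treated library at 26.2 CPM against 20.4 CPM, within 1.5-fold. Within gates, 4 of this list were lower in Sox2-positive and 4 in Sfn-positive cells, and 2 (Cdx4 and Wnt3a) in T-positive cells. The same 2 were lower in Tbx6-positive cells, where Cdx1 was at least 1.5-fold higher. In Meox1-positive cells none of the 9 with enough UMIs was lower, with a median log2 ratio of -0.06, and 3 were higher. These were Fgf8 (38.1 and 66.8 CPM), Cdx1 (9.66 and 16.3 CPM) and Fgf17, of which Cdx1 and Fgf17 did not lie above their levels in Zfp42-positive cells. In Zfp42-positive cells none of 9 was lower and 2, Fgf8 and Fgf17, were higher, with a median of 0.45. In the whole library, of 9 retinoic acid genes only Crabp2, which carries retinoic acid to its receptor, was past the line, at 126 and 64.3 CPM. Of 8 Hox cofactors only Meis1 was, at 19.8 and 12.6 CPM. None of 9 Polycomb and Trithorax subunits was, and Ezh2, the Polycomb methyltransferase, stood at 364 and 353 CPM. Within gates, 2 of the 9 retinoic acid genes were at least 1.5-fold lower in T-positive and 2 in Sox2-positive cells. In Sfn-positive cells 2 were lower and 2 higher. Of those with enough UMIs, 1 of 7 was lower and 1 higher in Tbx6-positive cells. In Meox1-positive cells 0 of 8 were past the line, and in Zfp42-positive cells 2 of 7 were higher.

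The genes most like each member were taken by Pearson correlation of log2(CPM + 1) over 12 profiles, 6 gates of cells positive for exactly 1 marker in 2 libraries. The profiles share libraries, and the Zfp42 ones hold 17 and 45 cells. The genes named were the highest of 9191 candidates (9192 for Hoxd1), and r takes no account of the size of a change. Hoxd1 was most like Mtx2 (r = 0.94), Prkd1 and Creg1, and Hoxd3 most like Ifnar2 (r = 0.97), Dact1 and Hmga2. Hoxd4 was most like Atp5g3 (r = 0.98), Ssb and Gpbp1. Over the profiles Hoxd4 ran from 0.88 to 85.8 CPM. These 3 genes varied far less, from 292 to 426, 436 to 678 and 91.3 to 121 CPM. Hoxd8 was most like Dll1 (r = 0.98), a Notch ligand of presomitic mesoderm, Mdh2 and Acta2. Mdh2 also varied little, from 228 to 347 CPM, while Hoxd8 ran from 0 to 16.1 CPM. Hoxd9 was most like Chst7 (r = 0.98), Lactb and Zdhhc16. Among the members, the neighbours Hoxd8 and Hoxd9 were the most alike (r = 0.95), followed by Hoxd4 and Hoxd8 (r = 0.93). Hoxd1 and Hoxd9, at opposite ends, were the least alike (r = 0.54), and the neighbours Hoxd1 and Hoxd3 gave r = 0.77. In the untreated Zfp42 profile of 17 cells Hoxd1 stood at 4.48 CPM, and Hoxd3, Hoxd8 and Hoxd9 at 0. How far the r values of Hoxd1 rest on such low counts was not tested.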

How the data were processed

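Single-cell RNA sequencing (10x Genomics 3′ v3.1) was done on 1 untreated and 1 dTAG-13 library. The values deposited by the authors are raw UMI counts per gene and barcode, made with Cell Ranger 6.1.2 and mm10, per the submitters' processing notes. The authors' annotation and strand setting were not stated. The tables held 7276 and 7873 barcodes. Barcodes with under 1000 genes or over 10% mitochondrial UMIs were removed (630 and 693). Scrublet in scanpy 1.11.5 marked only 1 and 0 doublets by its own threshold, so the highest scores were removed at 0.8% per 1000 barcodes (424 and 496). Kept cells held 140019633 and 151601709 UMIs.

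UMIs were summed per library and gate and scaled to CPM. The fold and its interval come from the counts without a prior, so they can lie farther from 0 than the log2 ratio with a prior of 1 CPM on which calls were made. The intervals were checked on simulated counts with known fold changes. Gates needed 3 UMIs of a marker. A gene was read with at least 20 UMIs over both libraries and called at 1.5-fold. No test between groups was possible with 1 library each. Alternatives were edgeR 4.0.16 TMM and DESeq2 1.42.0 size factors, priors, cell filters, doublets, thinning and gates. All members were named in every gate, with listed related genes and the 3 genes most alike, among genes with a mean of at least 5 CPM, gate markers and predicted genes left out. Members, lists and gates were chosen with earlier results of these data known. Promoter sequences and positions came from RefSeq and GENCODE M21.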

Additional observations from a re-analysis of the deposited data

How the results depend on the processing

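Within the 6 gates, 510 alternative values of 30 log2 ratios were computed. Of these, 473 moved by no more than the distance from the middle of the counting interval to its end, 37 moved farther, and 0 were called values that changed sign. Values that were not called could change sign. In cells positive for Tbx6 and no other marker, Hoxd1 had -0.97 in place of 0.29 and Hoxd9 0.24 in place of -0.31. No member was called in the Tbx6 gate, so no change of sign could count there. In the whole library every member stayed lower under every alternative run. TMM and DESeq2 scaling moved no count of members, and the median of all genes shifted by less than 0.1 on the log2 scale. A prior of 5 CPM gave whole-library log2 ratios of -0.38 for Hoxd1, -0.55 for Hoxd3, -1.15 for Hoxd4, -0.49 for Hoxd8 and -0.69 for Hoxd9. It left 2 members at least 1.5-fold lower in the whole library, 1 in T-positive, 3 in Sox2-positive and 0 in Sfn-positive cells. A larger prior draws low genes toward 0 by construction. A prior of 0.1 CPM gave -0.92 for Hoxd1, -1.15 for Hoxd3 and -1.21 for Hoxd8, with 1 member higher in Zfp42-positive cells. Without doublet removal 1 member was lower in Tbx6-positive, 1 in Meox1-positive and 4 in Sfn-positive cells, and 1 was higher in Zfp42-positive cells. Thinning to 5000 UMIs left 1 in Sfn-positive cells, and the mean of per-cell CPM gave 1 in Zfp42-positive cells. Gates of at least 1 UMI gave 1 lower member in Tbx6-, 2 in Meox1-, 4 in Sfn- and 5 in Zfp42-positive cells. Gates of at least 2 UMIs gave 1 in Tbx6- and 2 in Zfp42-positive cells, at least 5 UMIs gave 2 in Tbx6-positive cells, and at least 100 CPM gave 1 in Zfp42-positive cells. Cells positive for exactly 1 marker gave 1 in Tbx6-positive cells. The cause of these shifts was not tested. For no count of members under an alternative was the share of all genes past 1.5-fold computed, so these counts describe the setting only. The share of Sox2-positive cells was 4.08 points lower in the treated library, and 0.182 points higher with a gate of at least 1 UMI. With Pou5f1-positive cells left out, the whole-library ratio was -0.55 for Hoxd1, short of 1.5-fold, -0.79 for Hoxd3, -1.12 for Hoxd4 and -0.69 for Hoxd9, and 4 members remained past 1.5-fold. With equal shares of strata it was -0.77 for Hoxd3, -1.13 for Hoxd4, -0.74 for Hoxd8 and -0.69 for Hoxd9. Both were chosen after seeing the data. No paired analysis was possible because there was 1 library per group. Depth limits Hoxd1, Hoxd3 and Hoxd8 most, with 22 to 30 treated UMIs in Tbx6-positive cells.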
